A study of Mus musculus with 4 samples.

Results

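The numbered zinc finger genes are mouse genes named Zfp with a number alone, most of which encode proteins with C2H2 zinc fingers. Of the 20714 gene symbols present in both assays, 361 carried such a name. Zfp42, Zfp57 and Zfp352 were left aside, and of the remaining 358 genes, 194 had a mean mRNA level of at least 1 FPKM (fragments scaled to transcript length and to the mapped fragments of the library) over both RNA-seq libraries. These 194 genes are the members described here, and the other 164 stayed under that floor. The members were thus chosen by their mean mRNA level in these libraries, and their mRNA values are a description with no test.

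The study compared mRNA with ribosome-protected fragments (RPF) in mouse blastocysts, the preimplantation stage at which the embryo has an outer trophectoderm and an inner cell mass. The embryos came from 4-week-old C57BL/6J females mated with PWK/PhJ males. The females had been injected with the hormones PMSG and hCG to induce ovulation. The embryos were wild type (WT) and otherwise untreated. They had been taken at the 8-cell stage and grown to blastocysts in KSOM medium before the zona pellucida was removed. The sample labels give the strain as C57BL/6N x PWK, so the maternal substrain is named in different ways. There were 2 RNA-seq libraries made by Smart-seq2 from polyadenylated RNA and 2 Ribo-seq libraries made by Ribo-lite, a low-input form of ribosome profiling in which the stretches of mRNA covered by ribosomes are sequenced. The comparison is thus between assays in one kind of embryo, with no treated group, and no source says that libraries of one assay came from separate pools of embryos, so p-values measure the spread between these libraries, which may be technical.

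A C2H2 finger is a short fold held by zinc, and arrays of fingers read DNA sequence, or in some proteins RNA. Many of these proteins also carry a KRAB domain at the N terminus, which recruits KAP1 (Trim28) and with it the histone methyltransferase Setdb1, and such KRAB zinc finger proteins are known for silencing retroelements and for guarding imprints in early embryos. Their genes have multiplied by tandem duplication, and many lie in clusters of related neighbours. Other numbered members have nothing in common with this system and act in ribosome assembly, mRNA decay, splicing or ubiquitination.

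The sequences below show what the KRAB members share and why the reads of some of them are hard to assign. A KRAB-like string and a wider form of it, chosen after the sequences had been read, were searched in the translated coding sequences of the GENCODE annotation of mm9, the build to which the authors aligned their reads. The bases that code for the core of the wider form are printed for 8 members, of which Zfp982, Zfp809 and Zfp568 also matched the narrower string and the other 5 did not. They are Zfp985, Zfp979 and Zfp982 of a cluster on chromosome 4, Zfp935, Zfp808 and Zfp934 of a cluster on chromosome 13, and Zfp809 and Zfp568, which have known targets. Each is written 5′ to 3′ on the strand of its gene, with capitals where a base differs from that of Zfp985.
Zfp985, chr4:146955369-146955401, plus strand: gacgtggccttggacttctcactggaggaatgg
Zfp979, chr4:146989465-146989497, minus strand: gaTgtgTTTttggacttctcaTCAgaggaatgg
Zfp982, chr4:146884880-146884912, plus strand: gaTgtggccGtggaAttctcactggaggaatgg
Zfp935, chr13:62558369-62558401, minus strand: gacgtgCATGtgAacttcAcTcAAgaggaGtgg
Zfp808, chr13:62270820-62270852, plus strand: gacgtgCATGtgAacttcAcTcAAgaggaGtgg
Zfp934, chr13:62621854-62621886, minus strand: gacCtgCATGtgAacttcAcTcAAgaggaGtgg
Zfp809, chr9:22039482-22039514, plus strand: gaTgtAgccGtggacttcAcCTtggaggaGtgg
Zfp568, chr7:30782787-30782819, plus strand: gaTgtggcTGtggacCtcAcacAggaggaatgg
Over these 33 bases Zfp982 differed from Zfp985 at 3 positions and Zfp934 at 11. Zfp935 and Zfp808 were identical here.

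A stretch of the finger array is shown next. The following 28 bases of the Zfp985 coding sequence, about the length of a footprint, are shown because 12 of the 13 members of the chromosome 4 cluster held them exactly, and the capitals mark the codons of the linker that joins one finger to the next.
Zfp985, chr4:146957897-146957924, plus strand: ttcatACAGGAGAGAAACCTtacaaatg
In the whole annotation 27 genes held this window. A single window of a member was found in up to 48 genes, and 45 members had a window present in over 20 genes. The authors kept reads that mapped to up to 20 places, so footprints from a window in over 20 genes would exceed that limit. Fragments from windows shared by fewer genes cannot be given to 1 gene. Whether members lost RPF in this way was not tested.

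Of the 194 members, 191 were matched to the annotation (171 by symbol and 20 by an older name), and Zfp383, Zfp433 and Zfp973 were not. At least 1 C2H2 string was found in 182, with a median of 10 fingers and a maximum of 32. The narrower KRAB-like string was found in 60 members, the wider form in 100 members, and a SCAN-like string in 4. With the wider form, 56.5% of the 177 numbered genes that carry KRAB and 52.3% of the others were members.

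These libraries were of embryonic cells by their markers. The trophectoderm keratin Krt8 stood at 1078 and 837.5 FPKM of mRNA, and the pluripotency factor Pou5f1 at 70.1 and 28.6 FPKM. Nanog, of the inner cell mass, also differed between the RNA-seq replicates (69.8 and 28.1). Eomes, of the trophectoderm, differed the other way (15.5 and 32.4), whereas Cdx2 was alike (21.6 and 21.0 FPKM). Whether the libraries differed in cell make-up was not tested. Sox2, of the inner cell mass, and Sox17, of the primitive endoderm, were under 1 FPKM of mRNA in both libraries, with RPF at 37.1 and 35.4 FPKM and at 32.7 and 27.6 FPKM. All 5 markers of cumulus and granulosa cells and all 3 of fibroblasts were listed at 0 in the 4 libraries. The haemoglobin gene Hba-a1, however, was listed at 1.62 and 0.729 FPKM of mRNA. Zp3, of the oocyte, was at up to 1.13 FPKM of mRNA and at 1.74 and 1.92 FPKM of RPF. The files hold no counts. The smallest steps between values corresponded to about 5465160 and 5171850 fragments for the RNA-seq libraries and 533189 and 483459 for the Ribo-seq libraries, so at a coding length of 1500 bases 1 footprint was worth 1.44 and 1.59 FPKM. RPF values of a few FPKM therefore rest on very few footprints, and intervals or floors from such counts cover counting error only.

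The members were weakly expressed. Their median mRNA level was 2.64 FPKM (2.64 and 2.77 in replicates 1 and 2) against 7.36 FPKM over the 8746 genes that passed the same floor. Only 21 members exceeded 10 FPKM and 7 exceeded 20 FPKM, and 33 members were under 1 FPKM in one of the replicates. Just inside the floor were Zfp418, Zfp13 and Zfp65 with means of 1.00, 1.01 and 1.01 FPKM. Just outside it were Zfp346, Zfp646 and Zfp362 with 0.993, 0.988 and 0.973 FPKM. These values at the edge moved with the library: Zfp418 was at 0.22 FPKM in replicate 1 and 1.78 in replicate 2.

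The most abundant member was Zfp207, a microtubule-binding protein that loads Bub3 onto kinetochores, with mRNA at 95.4 and 95.3 FPKM. Zfp706, known from embryonic stem cells for promoting exit from self-renewal, followed at 81.7 and 64.3 FPKM. Zfp593, a factor of large ribosomal subunit assembly, stood at 31.2 and 33.1 FPKM. The next were Zfp985 (31.8 and 24.9), Zfp106, an RNA-binding protein (27.6 and 26.2), Zfp979 (28.4 and 22.3), Zfp330, a nucleolar protein (23.1 and 19.3), and Zfp277, a partner of the ribosomal protein Rps2 (20.4 and 18.3 FPKM). Zfp985 and Zfp979 were the KRAB members of this group, and both lie in the chromosome 4 cluster. Of these 8 genes, 6 therefore lacked the wider KRAB string.

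RPF was above 0 in both Ribo-seq libraries for 151 members (77.8%, against 89.2% of all genes at the floor), in one library for 30 (15.5% against 7.56%) and in neither for 13 (6.70% against 3.27%). At least 3 estimated footprints in both libraries were found for 84 of the 191 members with a known coding length (44.0% against 75.5%). The members did not have shorter coding sequences, with a median of 1650 bases against 1269. Detection depends on the level of a gene, so it was also read within ranges of mRNA. RPF was above 0 in both libraries for 63.9% of members and 66.5% of all genes from 1 to 2 FPKM of mRNA, for 76.9% and 84.4% from 2 to 5, for 94.4% and 93.3% from 5 to 10, and for 100% and 96.9% from 10 to 20 FPKM. By this measure the members were thus close to all genes outside the range from 2 to 5 FPKM, and no test of the difference was run. By the stricter measure the members lay lower up to 10 FPKM. From 1 to 2 FPKM of mRNA, 26.8% of members and 37.4% of all genes reached 3 footprints in both libraries, from 2 to 5 FPKM 33.3% and 61.8%, and from 5 to 10 FPKM 66.7% and 81.2%. From 10 to 20 FPKM the shares were 92.9% and 89.6%, with 14 members in that range.

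The median RPF level of members was 5.12 FPKM (5.45 and 5.00 in replicates 1 and 2), and that of all genes at the floor was 22.8 FPKM. The 3 highest members were Zfp706 (2617 and 3283 FPKM), Zfp593 (381 and 369) and Zfp207 (289 and 269). They were followed by Zfp971 (55.1 and 113.5), Zfp330 (76.5 and 86.8), Zfp386, Zfp934 (67.2 and 79.8) and Zfp622 (83.7 and 57.0 FPKM). Zfp386 owed its place to one library: its RPF was 162 FPKM in replicate 1, about 152 footprints, and 0 in replicate 2, with mRNA at 0.886 and 2.0 FPKM. The next 3 members, with unlike replicates, were picked after their values were seen. RPF was 52.2 and 0.181 FPKM for Zfp950, 0 and 34.6 FPKM for Zfp740, and 21.3 and 0.879 FPKM for Zfp120. The replicates of RPF differed by more than 2-fold, on the log2(FPKM + 1) scale, for 64 members (33.0%) and for 24.8% of all genes at the floor, and those of mRNA for 16 members (8.25%) and 6.05% of genes.

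The order of members by mRNA was a weak guide to their order by RPF. Across the 194 members, Spearman's rho between mean mRNA and mean RPF was 0.49, compared with 0.82 across the 8746 genes. Between replicates it was 0.78 for mRNA and 0.71 for RPF of members, and 0.94 and 0.90 for all genes. Genes are not independent replicates, the members span a narrower range of levels, and these values are descriptions.

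**Figure D1:**
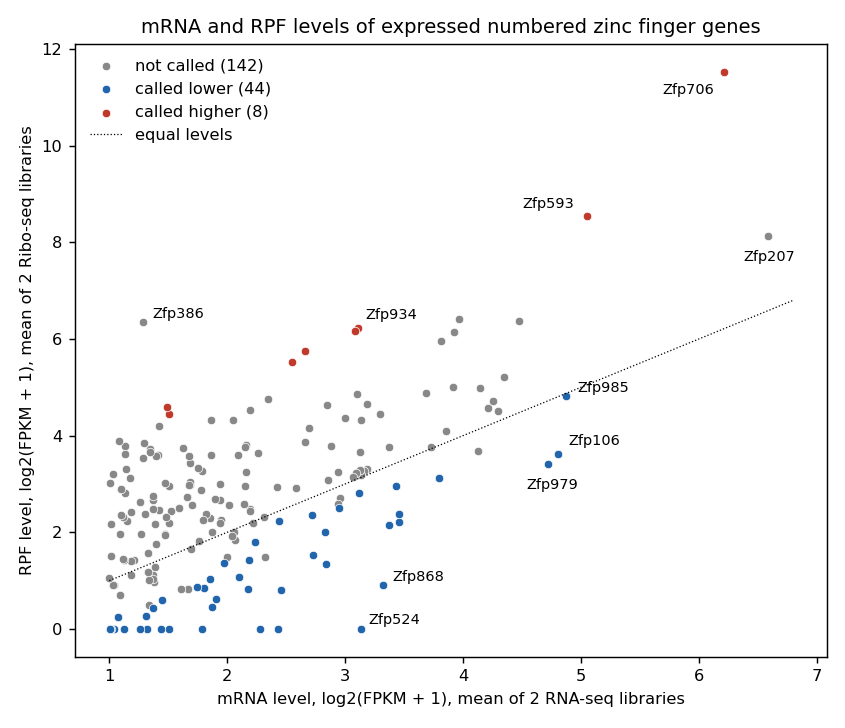
Mean RPF level against mean mRNA level of the 194 members, both as log2(FPKM + 1) over 2 libraries, with 1 point per gene coloured by the call on its RPF to mRNA ratio; the dotted line marks equal levels. The 8 members called higher lie far above the line, and 13 of the 44 called lower lie at an RPF of 0.

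The ratio of RPF to mRNA asks how much footprint signal a gene had for its transcript level. The FPKM of the assays are scaled separately, so only the order of ratios within the embryo has a meaning, and each library was centred on its median over the genes tested. The median ratio of mean RPF to mean mRNA was 1.48 for members and 2.67 for all genes at the floor. It was under 1 for 68 members (35.1%) and for 14.9% of genes. On the centred log2 scale the medians were −1.19 and −0.28. Low genes lay lower on this scale: the median of all genes was −0.64 from 1 to 2 FPKM of mRNA and −0.15 from 5 to 10 FPKM. That of members was −1.18 and −1.34 in the same ranges. The difference remained at matched mRNA levels up to 20 FPKM: the median ratios of members and of all genes were 2.11 and 2.83 from 1 to 2 FPKM, 1.47 and 2.84 from 2 to 5, 1.10 and 2.81 from 5 to 10, and 1.62 and 2.62 from 10 to 20 FPKM. Above 20 FPKM the 7 members had a median of 2.93 against 2.45 for all genes.

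**Figure D2:**
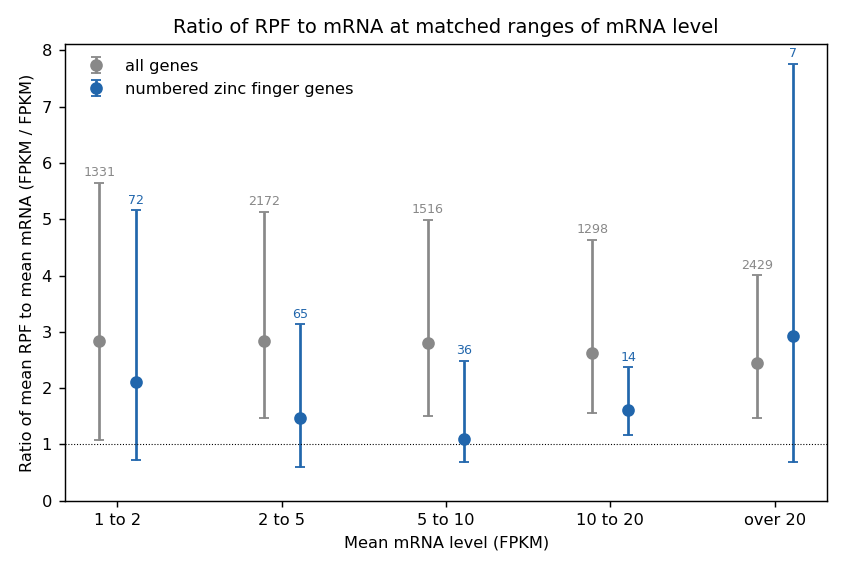
Ratio of mean RPF to mean mRNA (FPKM over FPKM) for all genes at the floor and for the members within 5 ranges of mean mRNA; points are medians, bars run from the lower to the upper quartile, and the numbers above the bars are genes. Members lie below all genes in each range up to 20 FPKM, for instance 1.10 against 2.81 from 5 to 10 FPKM, with wide overlap of the quartiles.

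The ratio of each gene was tested with limma on log2(FPKM + 1) over all 8746 genes, and a call required an adjusted p under 0.05 and a centred difference of at least 1. By this rule 8 members were called higher (4.12%, background 10.0% of all genes tested) and 44 were called lower (22.7%, background 12.2%), and the other 142 passed in neither direction. The RNA-seq replicates carried much of the precision. Without either RNA-seq library the lower calls of members were lost and those over all genes became far fewer, as the spread then came from the Ribo-seq pair alone. Leaving out a Ribo-seq library gave more calls both among members and over all genes. The median centred difference of members was −0.99 and −1.18 without RNA-seq replicates 1 and 2, and −1.05 and −0.98 without Ribo-seq replicates 1 and 2. All RPF values lay below all mRNA values, in FPKM, for 38 members (19.6%) and for 7.82% of all genes at the floor, and each of those 38 was among the 44. From 1 to 2 FPKM of mRNA 18.1% of members were called lower against 12.8% of all genes, from 2 to 5 FPKM 23.1% against 8.56%, from 5 to 10 FPKM 33.3% against 8.18%, and from 10 to 20 FPKM 7.14% against 9.94%. Above 20 FPKM it was 42.9% of the 7 members against 18.7%.

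The members called higher were Zfp706, Zfp593, Zfp384, Zfp934, Zfp91, Zfp622, Zfp830 and Zfp428, and in each both RPF values exceeded both mRNA values. Zfp706 had mRNA at 81.7 and 64.3 FPKM and RPF at 2617 and 3283 FPKM, a centred log2 difference of 3.84 ± 0.22 (SE; adjusted p = 0.00105, limma). Its coding sequence has only 231 bases, so that about 105 and 120 footprints gave these values, and per plain coding length without the correction for fragment size the RPF was 855 and 1073 FPKM. Zfp593 had mRNA at 31.2 and 33.1 FPKM and RPF at 381 and 369 FPKM, a difference of 2.03 ± 0.17 (adjusted p = 0.00286), from about 41.8 and 36.7 footprints over 405 coding bases. These are among 4 members with a coding sequence under 500 bases, and 26.5% of all genes of that length were called higher.

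The remaining higher calls rested on longer coding sequences, apart from Zfp428 with 531 bases. Zfp622, which acts in late maturation of the large ribosomal subunit, had 8.60 and 6.40 FPKM of mRNA and 83.7 and 57.0 of RPF, and a difference of 1.58 ± 0.31. Zfp91, a ubiquitin ligase factor, had 4.38 and 6.27 FPKM of mRNA and 56.7 and 48.9 of RPF, and a difference of 1.63 ± 0.31. Zfp830, a spliceosome-associated protein, had 5.02 and 4.66 FPKM of mRNA and 36.6 and 53.3 of RPF. For Zfp384, a transcription factor, the values were 1.21 and 2.40 FPKM of mRNA and 22.5 and 24.1 of RPF. Zfp934 had 6.30 and 8.95 FPKM of mRNA and 67.2 and 79.8 of RPF, with a difference of 1.65 ± 0.31, and was the only member called higher that carried the wider KRAB string. Zfp428 passed narrowly, at 1.47 ± 0.38 (adjusted p = 0.0491), with 2.16 and 1.54 FPKM of mRNA and 22.8 and 18.9 of RPF from about 4.03 and 3.02 footprints, and its call was lost with a pseudocount of 0.1. Adjusted p lay between 0.0208 and 0.0427 for the other 5 genes of this paragraph.

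Among the 44 members called lower, 13 had no RPF in either library, 30 had under 3 estimated footprints in both libraries summed, and 8 reached 3 footprints in each. Their median levels were 3.53 FPKM of mRNA and 0.812 FPKM of RPF. Had each had the median ratio of all genes in its range of mRNA, about 1269 footprints would have been counted over the 44 genes in place of 219, with 3.62 to 367 for a single gene. These genes were called for their low RPF, so that gap is a description. Over all members the same reckoning gave 4154 against 3453 observed, and over all genes at the floor 714187 against 775113 observed. With so few footprints, a low ratio is low RPF at this depth and does not show a lack of translation.

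The lowest was Zfp524, with mRNA at 5.74 and 9.84 FPKM and RPF listed at 0 in both libraries, where 3 footprints would have given 7.35 and 8.11 FPKM. Its centred log2 difference was −4.57 ± 0.48 (adjusted p = 0.0051, limma). All 13 members listed at 0 in both libraries were called lower. With mRNA at the floor, 2 zeros already meet the size threshold of the call by construction. Hba-a1, with a mean mRNA of 1.18 FPKM and RPF at 0, was called lower at −2.57. These 13 calls therefore add little to the zeros themselves. Such a pair of zeros shows almost no spread, so its SE and p leave out the counting error of the RPF. RPF was also listed at 0 in both libraries for Zfp688 (mRNA 4.16 and 4.63 FPKM), Zfp664 (4.13 and 3.56), Zfp185, an actin-associated LIM domain protein in which no C2H2 string was found (1.53 and 3.36), Zfp367 (1.63 and 2.04) and Zfp61 (1.53 and 1.89 FPKM). A count of 0 allows up to 9.01 and 9.94 FPKM for Zfp688 and 6.84 and 7.54 FPKM for Zfp367, and for all 5 genes listed after Zfp524 the limit exceeded the mRNA value in FPKM. Zfp868 had 11.1 and 6.92 FPKM of mRNA against 1.75 and 0 of RPF, about 1 footprint, and a difference of −4.04 ± 0.63. Zfp180 had 6.09 and 2.86 FPKM of mRNA against 1.51 and 0 of RPF, and Zfp617 had 6.28 and 5.99 against 1.69 and 1.39. The calls on Zfp868 and Zfp180, each with RPF in 1 library, were lost with a pseudocount of 0.1.

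Larger counts stood behind a few of the lower calls, at the abundant end. Zfp106 had mRNA at 27.6 and 26.2 FPKM and RPF at 12.8 and 9.67 FPKM, from about 37.2 and 25.6 footprints over 5667 coding bases, and a difference of −2.68 ± 0.29 (adjusted p = 0.00541, limma). None of its 28-base windows was shared with another gene. Zfp979 had 28.4 and 22.3 FPKM of mRNA and 5.88 and 13.5 of RPF, a difference of −2.86 ± 0.49, from about 3.21 and 6.70 footprints. Zfp985 was called lower at −1.54 ± 0.33 although its RPF (22.4 and 32.2 FPKM) overlapped its mRNA (31.8 and 24.9 FPKM) before centring, since a typical gene had more RPF than mRNA on this scale. In Zfp979 and Zfp985, 43.7% and 48.5% of windows were shared with other genes.

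**Figure D3:**
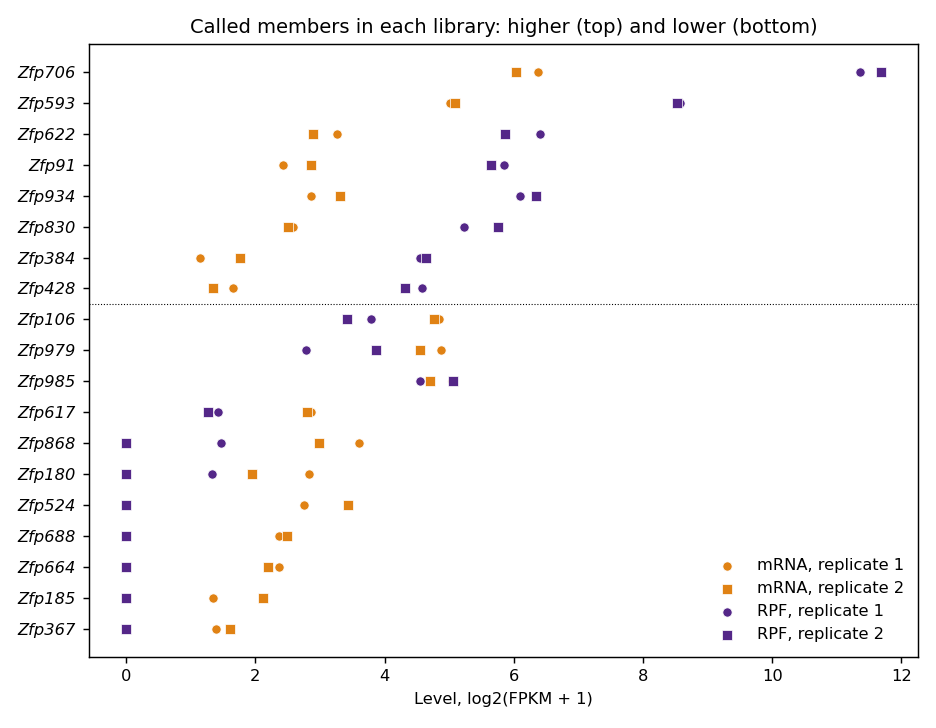
Levels in each library, as log2(FPKM + 1), of the 8 members called higher (above the dotted line) and of 11 called lower (below it), with mRNA in orange, RPF in purple, circles for replicate 1 and squares for replicate 2. Both RPF points lie to the right of both mRNA points in every member called higher, and for Zfp524, Zfp688, Zfp664, Zfp185 and Zfp367 both RPF points fall together at 0.

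By role, the first list was of functions in RNA, ribosomes or proteolysis. It held 16 genes, of which 13 were members, and all 13 had RPF in both libraries. It also took in Zfp207 and Zfp706, whose known roles given above lie elsewhere. Of the 13, 5 were called higher (Zfp706, Zfp593, Zfp622, Zfp91 and Zfp830, 38.5% against a background of 10.0%) and 1 lower (Zfp106, 7.69% against 12.2%). Zfp706 and Zfp593 are the short coding sequences noted above. The list was chosen with earlier results of these data known. Its shares and medians are therefore descriptions and do not test a difference by role. The 13 had a median RPF of 44.9 FPKM and a median centred difference of 0.42, against −1.19 over all members. Among those that passed in neither direction were Zfp598, the ubiquitin ligase that senses collided ribosomes, with 2.56 and 4.37 FPKM of mRNA and 16.3 and 9.82 of RPF, and Zfp36 (tristetraprolin), which directs the decay of AU-rich mRNAs, with 6.16 and 4.79 of mRNA and 14.8 and 19.1 of RPF. Zfp326, which couples transcription to splicing, had 2.82 and 2.45 FPKM of mRNA and 19.4 and 18.7 of RPF. The SUMO ligase Zfp451 (2.12 and 1.15 against 3.96 and 0.828) and the RNA-binding protein Zfp638 (6.86 and 6.47 against 10.8 and 6.27) had centred differences of −1.26 and −1.20 and did not pass either.

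Of 25 listed transcription and chromatin factors without KRAB, 14 were members, all with RPF in both libraries. Of the 14, 7.14% were called higher and 14.3% lower, against backgrounds of 10.0% and 12.2%. Zfp384 was called higher, and Zfp335, a coactivator bound to H3K4 methyltransferase complexes (mRNA 2.36 and 3.47, RPF 0.980 and 2.16 FPKM), and Zfp687 (2.65 and 4.75, 2.66 and 2.35 FPKM) were called lower. Both lower calls were lost with a pseudocount of 0.1, with a floor of 1 FPKM in both assays and with centring on genes from 1 to 10 FPKM, though the direction held, and the call on Zfp384 was lost with the pseudocount of 0.1. The median centred difference was −0.25. Zfp296, a pluripotency-associated factor, was the most abundant with 16.5 and 11.7 FPKM of mRNA and 46.1 and 16.3 of RPF. Zfp143, which binds promoters, had 3.72 and 3.44 FPKM of mRNA and 28.4 and 15.6 of RPF. Zfp217, a partner of CoREST, had 5.54 and 5.13 FPKM of mRNA and 14.7 and 12.7 of RPF, and Zfp281, a partner of Nanog, had 2.31 and 2.57 of mRNA and 9.04 and 8.31 of RPF. The other 7 (Zfp148, Zfp292, Zfp516, Zfp532, Zfp592, Zfp609 and Zfp644) were all under 4 FPKM of mRNA in each library and passed in neither direction.

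Of 6 listed KRAB proteins with known retroelement or imprint targets, 4 were members, and none was called. Zfp809, which silences proviruses through their primer binding site, had 11.4 and 12.3 FPKM of mRNA and 23.9 and 33.5 of RPF. Zfp568, a repressor of a placental Igf2 transcript, had 8.21 and 6.93 of mRNA and 34.7 and 21.4 of RPF. For Zfp932, which acts on endogenous retroviruses in embryonic stem cells, mRNA was 20.5 and 12.8 FPKM and RPF 39.1 and 22.1 FPKM, with 77.7% of its windows shared. Zfp445, needed for imprint maintenance, had 1.94 and 1.60 of mRNA and 6.77 and 7.46 of RPF. Their centred differences ran from −0.66 to 0.25, and each had at least 3 footprints in both libraries.

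The genes of the proteins that KRAB members recruit were measured in the same libraries, by mRNA and RPF. Of 16 genes listed for the KAP1 pathway 15 were in both assays, with a median centred difference of 0.85. Of the 15, 5 were called higher (Trim28, Cbx3, Cbx5, Pphln1 and Smarcad1, 33.3% against a background of 10.0%). Only Atf7ip was called lower (6.67% against 12.2%). Trim28 stood at 39.5 and 39.3 FPKM of mRNA and 368 and 355 of RPF, a centred difference of 1.69 ± 0.16 (adjusted p = 0.00420, limma). Setdb1 stood at 12.8 and 15.1 FPKM of mRNA and 22.1 and 19.9 of RPF, and its difference of −0.91 ± 0.29 did not pass (adjusted p = 0.0765). Trim28 mRNA was thus above that of every member but Zfp207 and Zfp706.

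Members with the wider KRAB string had a median mRNA of 3.16 FPKM and a median RPF of 5.11 FPKM, and those without it 2.21 and 5.03 FPKM. The median ratios were 1.30 and 1.93, and the median centred differences −1.27 and −0.83. Of the 100 KRAB members 1 was called higher (1%) and 25 lower (25%). Of the 91 without the string 7 were called higher (7.69%) and 19 lower (20.9%). Over all genes tested the shares were 10.0% and 12.2%. With the narrower string the medians were −1.32 for 60 members and −0.94 for 131, with 0 and 8 called higher (0% and 6.11%). The classes overlapped widely and no test of their difference was run. Among other zinc finger families at the same floor, the median centred difference was −1.12 for 11 Zscan and Zkscan genes, −0.51 for 20 Zbtb genes and 0.62 for 10 Klf genes, so Klf lay on the other side of the members.

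Position in the genome was read from the same annotation. Groups of at least 3 numbered Zfp genes with gaps of at most 500 kb were counted as clusters, which gave 30 clusters with 208 numbered genes. They held 117 members, 84 of which had the wider KRAB string. Clustered members had a median ratio of 1.21 and a median centred difference of −1.35, with 32 called lower (27.4%) and 2 higher (1.71%). The 74 members outside clusters had a median ratio of 2.47 and a difference of −0.57, with 12 called lower (16.2%) and 6 higher (8.11%). Over all genes tested 12.2% were called lower and 10.0% higher. The median mRNA was alike, at 2.64 and 2.68 FPKM, and the median RPF was 4.45 and 7.18 FPKM. Members with over 5% of their windows shared had a median centred difference of −1.28 (70 genes) and the others −0.996 (121 genes). Of the 44 lower calls 27 came from the latter, and 7 of the 8 higher calls. The shares called lower were alike, at 24.3% of the former and 22.3% of the latter. The shares called higher were 1.43% and 5.79%. Of all genes with at most 5% of windows shared, 11.5% were called lower and 8.89% higher. The part of shared reads in these differences was not tested.

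The cluster on chromosome 4 (chr4:145100662-147222475) was expressed as a whole: all 13 of its numbered genes were members, and all 13 carried the wider KRAB string. Of the 13, 6 were called lower, where the background was 12.2% of all genes tested. Its median mRNA was 7.53 FPKM, the median RPF 7.87 FPKM and the median centred difference −1.39. Besides Zfp985 and Zfp979, Zfp991 (mRNA 15.5 and 10.2, RPF 9.18 and 6.36 FPKM), Zfp984 (12.7 and 6.81, 7.49 and 6.16), Zfp980 (8.16 and 5.26, 5.73 and 3.55) and Zfp600 (7.21 and 4.98, 4.00 and 2.07) were called lower. Zfp982 had 14.7 and 20.4 FPKM of mRNA and 24.7 and 20.9 of RPF, and its difference of −1.10 did not pass. A median of 81.1% of windows in this cluster was shared with other genes, so values of single genes here are uncertain.

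On chromosome 17 (chr17:21145905-23736454) 12 of 22 numbered genes were members, with lower levels: the median mRNA was 2.14 FPKM, the median RPF 0.812 FPKM and the median centred difference −2.36, and 6 were called lower. Here 13.9% of windows were shared at the median. The second cluster of that chromosome (chr17:32908181-33768724) had 8 of 11 genes as members with a median mRNA of 3.52 FPKM, a median RPF of 4.74 FPKM and 2 lower calls. The background of lower calls was 12.2% of all genes tested.

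The small cluster at chr13:62231276-62621904 lay at the other end. All 3 of its genes, each with KRAB, were members: Zfp935 had mRNA at 10.8 and 15.3 FPKM and RPF at 65.2 and 56.2 FPKM, Zfp934 was called higher as given above, and Zfp808 had mRNA at 7.98 and 8.25 and RPF at 15.4 and 32.9 FPKM. In Zfp935 and Zfp934 both RPF values exceeded both mRNA values several-fold, and the median centred difference of the cluster was 0.68. Windows shared with other genes made up 31.0%, 73.1% and 63.4% of these coding sequences, respectively. On chromosome 2 (chr2:177249438-177813181) Zfp971 had mRNA at 18.1 and 11.1 and RPF at 55.1 and 113.5 FPKM, a centred difference of 0.92. Its neighbours Zfp970 (mRNA 8.84 and 7.01, RPF 4.78 and 12.4) and Zfp931 (10.1 and 6.06, 7.95 and 9.75) lay lower, at −1.49 and −1.33. None of the 3 was called.

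**Figure D4:**
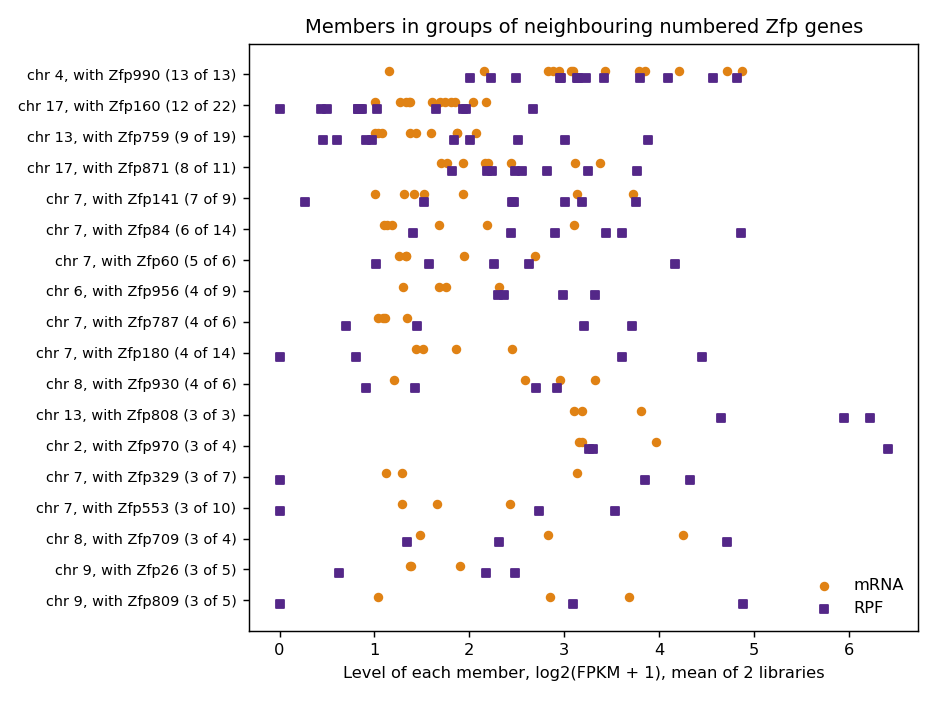
Mean mRNA (orange circles) and mean RPF (purple squares) of each member, as log2(FPKM + 1) over 2 libraries, in the clusters with at least 3 members; each row is a cluster, named by chromosome and its first member, with the number of members among its numbered genes. RPF lies below or among the mRNA values in the chromosome 4 cluster, is lowest in the cluster with Zfp160 on chromosome 17 (median 0.812 FPKM), and is well above mRNA in that with Zfp808 on chromosome 13 (median 60.7 FPKM).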

How the data were processed

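The data were gene-level FPKM tables of 2 RNA-seq and 2 Ribo-seq libraries, each deposited per library by the authors. For mRNA, the authors trimmed reads with Trim Galore 0.4.2, aligned them with STAR 2.5.3a to mm9 and computed FPKM with Cufflinks 2.2.1. For RPF, they used cutadapt 1.14, removed rRNA with Bowtie2 2.2.2, aligned with STAR (up to 20 places per read) and computed FPKM over coding sequences. Groups were taken from the sample titles. A symbol listed more than once was given by its highest row.

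Genes with a mean mRNA of at least 1 FPKM (8746) were tested with limma 3.58.1 (R 4.3.3) on log2(FPKM + 1). The added 1 understates changes of low genes, and centred differences of low genes lay lower, as given above. Each library was centred on its median, variances were moderated with a trend, and p-values were adjusted by Benjamini and Hochberg over all genes. The test was tried on simulated data: of 200 genes changed among 8746, 83% with a log2 change of 2 and 95% with one of 3 were recovered for RPF against mRNA. The simulated noise was normal, with the same spread in both assays, and footprints were not counted. Among members the typical spread between replicates was 0.47 for RPF and 0.24 for mRNA on the log2 scale. These rates therefore do not describe members with few footprints.

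Footprint numbers were estimated from the FPKM, the coding length less the Cufflinks default fragment size (mean 200, SD 80 bases) and the implied library totals, after which 86.7% and 86.1% of low RPF values lay within 0.1 of a whole number (20% by chance), and 67.4% and 66.3% of mRNA values. Annotation was GENCODE on NCBIM37 (mm9), with older names from RefSeq. A symbol match does not mean that the authors used the same gene model. Named genes were the 8 members highest in mRNA, in RPF and in each direction of call, up to 6 at 0 RPF with the most mRNA, the 3 on each side of the floor and the role lists; members of clusters and of replicate discordance were added after their values were seen. The members and lists were chosen with earlier results of these data known. One gene of the KAP1 pathway list is not reported here. Alternatives were another pseudocount, other filters, centring, quantile normalization, no trend, a replicate block, summed repeated symbols and each library left out.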

Additional observations from a re-analysis of the deposited data

How the results depend on the processing

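Of the 52 called members, 22 kept their call under every alternative with all libraries in which they were tested, leaving aside the fit with no filter, and 10 with it included; 8 of the 22 were not tested with the floor in both assays. Lower calls of members fell from 44 to 26 with a pseudocount of 0.1 and to 16 with a floor in both assays. With that floor, members with little RPF leave the test by construction. Over all genes lower calls fell from 1065 to 890 and 716, so the excess among members was smaller than in the main fit. The medians were then −1.63 (KRAB-like, pseudocount), and −0.85 (members) and −0.65 (no KRAB-like string) with the floor in both. With no filter, 49 members were called higher and 5 lower (5359 and 149 of all genes), since most of the added genes lie near 0 in both assays and set the centre, and the medians reversed to 0.65 for members, 0.52 for KRAB-like members and 0.90 for those with no such string, as did Zfp345 (0.015), Zfp472 (0.080), Zfp952 (0.17) and Zfp985 (0.30). Centring on genes from 1 to 10 FPKM gave −0.97, −1.09 and −0.71. A floor of 5 FPKM, added after seeing the data, gave 5 higher and 19 lower calls among 57 members and −1.64 for KRAB-like members. Over all genes at that floor it gave 665 higher and 835 lower calls. A floor of 2 FPKM gave medians of 4.41 FPKM of mRNA and 6.99 FPKM of RPF.

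Without single libraries, member calls ranged from 2 to 16 higher and 0 to 93 lower, and all-gene calls from 190 to 1394 and 35 to 2274; with an RNA-seq library left out, the lone sample was assumed to vary like the Ribo-seq pair. Medians ranged from −1.18 to −0.98 for members, −1.53 to −1.26 for KRAB-like members and −1.03 to −0.76 for those with no such string. Median mRNA ranged from 2.64 to 2.77 and RPF from 5.00 to 5.45 FPKM. With the replicate number as a block, 5 members were higher and 23 lower, and over all genes 765 and 785. The excess of lower calls among members was smaller there than in the main fit. The labels tie no number to shared embryos, and the correlation of same-numbered deviations was 0.0125, so the block is not read as a pairing. Depth limits the RPF: a typical member had about 7.97 footprints in both libraries together.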
